A study of Mus musculus with 10 samples.

Results

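The gene Atp6v0d2 (ENSMUSG00000028238.6) was examined in 5 lists of chromatin loops called from Hi-C contact maps of mouse bone marrow-derived macrophages (BMDMs). It lies on the minus strand at chr4:19876841-19922605 in GRCm38, has 8 exons in GENCODE M21, and its transcription start site (TSS) is at position 19922605. The gene was selected on measured values: among the 21728 protein-coding genes on the autosomes and X, it had many loops in the untreated list and few in the IL-4 list. A loop counted as near the gene when one of its 10 kb anchor bins overlapped 100 kb on either side of the TSS, which took in 21 bins (chr4:19820001-20030000). This gave 73 of 53424 loops under M0[CTR], 29 of 58260 under M2[IL-4], 68 of 67728 under M2p[pIL-4], 34 of 55012 under IFNG and 40 of 67000 under pIL-4 + IFNG.

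All cells came from wild type female C57Bl6 mice aged 2 to 3 months and were grown with M-CSF at 20 ng/ml to day 6. M0[CTR] cells had no further cytokine. M2[IL-4] cells had IL-4 at 20 ng/ml for 24 h, and M2p[pIL-4] cells had the same exposure, washing and 24 h of rest, so both M2p[pIL-4] and pIL-4 + IFNG cells had been primed. IFNG was given at 20 ng/ml for 3 h, either to unprimed cells (IFNG) or to primed and rested cells (pIL-4 + IFNG). Each of the 5 groups had 2 Hi-C samples but only 1 list, so no test between conditions could be made. The intervals given below cover counting error only, and PCR reads without molecular identifiers are not independent molecules. RNA was not measured in these files. The macrophage identity of the cells could therefore not be checked against marker genes here, and cells of other types in these bulk samples cannot be told apart from macrophages.

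Atp6v0d2 encodes the d2 subunit of the membrane-embedded V0 domain of the vacuolar proton pump (V-ATPase), which acidifies endosomes, lysosomes and the space beneath bone-resorbing osteoclasts. The d2 form is restricted to few cell types, osteoclasts and macrophages among them, and is known for a role in the fusion of osteoclast precursors, while its paralog Atp6v0d1 is made in most cells. A chromatin loop is a pair of distant segments that meet more often than their neighbours do. Many loops form where cohesin extrudes DNA until it meets CTCF bound in a facing orientation. IL-4 acts on macrophages through STAT6 and drives alternative polarization.

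Loops near Atp6v0d2 were far fewer in M2[IL-4] than in M0[CTR], and the M2p[pIL-4] list held nearly as many as M0[CTR]. Relative to the length of its list, the gene had 13.7 loops per 10000 under M0[CTR], 4.98 under M2[IL-4], 10.04 under M2p[pIL-4], 6.18 under IFNG and 5.97 under pIL-4 + IFNG. M0[CTR] and M2p[pIL-4] were thus the high lists, and the 3 others lay close together. The exact 95% Poisson interval of the loop number was 57.2 to 91.8 under M0[CTR] and 19.4 to 41.6 under M2[IL-4]. It was 52.8 to 86.2 under M2p[pIL-4], 23.5 to 47.5 under IFNG and 28.6 to 54.5 under pIL-4 + IFNG. As unscaled numbers, the intervals of the 2 high lists did not overlap that of M2[IL-4] or IFNG. That of M2p[pIL-4] touched the upper end of that of pIL-4 + IFNG. Per 10000 loops, the interval of M2p[pIL-4] (7.80 to 12.7) overlapped those of IFNG (4.28 to 8.64) and pIL-4 + IFNG (4.27 to 8.13). The gene was chosen for a high number in M0[CTR] and a low one in M2[IL-4], so the gap between these intervals follows from the choice. Neighbouring bin pairs share contacts and are not independent loops, so the true uncertainty is wider.

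**Figure D1:**
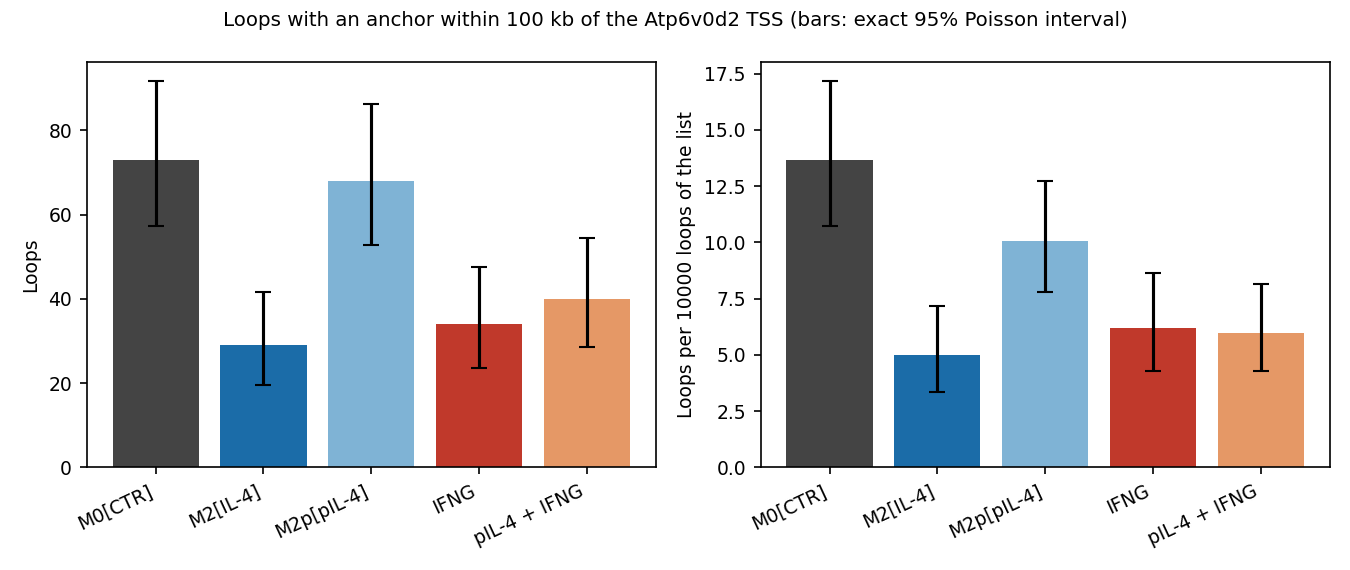
Loops with an anchor within 100 kb of the Atp6v0d2 TSS in each list, as numbers (left) and per 10000 loops of that list (right). Error bars are exact 95% Poisson intervals, for counting error only. M0[CTR] (73 loops) and M2p[pIL-4] (68 loops) stand above the other lists (29 to 40 loops).

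After scaling by list length with a pseudocount of 1 loop, the log2 ratio of M2[IL-4] to M0[CTR] was -1.43 (95% interval for counting error -2.13 to -0.82). Here and below, the intervals of loop ratios were computed without the pseudocount, which pulls the ratios towards 0, most of all at small numbers. Of all genes, 6.05% were at least 2-fold lower and 7.14% at least 2-fold higher in this comparison. The gene was chosen for this contrast, so its place there is a description: it was number 391 from the lowest of 21728 genes, and among the 9366 genes with at least 20 loops over both lists 13 were as low or lower, itself and its neighbours Cpne3, Rmdn1, Gm12353 and Ttpa included. The log2 ratio of M2p[pIL-4] to M2[IL-4] was 0.99 (0.37 to 1.69), just short of the 2-fold line that 4.22% of genes passed upwards. The gene was selected for a low number in M2[IL-4], the reference of this ratio, so a higher number after rest is partly set by the choice. The ratio was 0.0243 with at least 30 contacts per loop (19 against 16 loops) and 0.24 with touching bin pairs merged (8 against 6). The log2 ratio of M2p[pIL-4] to M0[CTR] was -0.44 (-0.94 to 0.05), in a comparison where 3.6% of genes were at least 2-fold lower.

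Loops were also fewer in IFNG than in M0[CTR]. The gene was selected for a high number in M0[CTR], which is the reference here, so this ratio is a description too. Against M0[CTR], IFNG had a log2 ratio of -1.12 (-1.78 to -0.54), and 6.05% of genes were at least 2-fold lower there. It was -0.42 with at least 30 contacts per loop and -0.16 with touching bin pairs merged. In primed cells the log2 ratio of the IFNG-treated list (pIL-4 + IFNG) to the rested one (M2p[pIL-4]) was -0.73 (-1.35 to -0.17), which did not reach the 2-fold line that 2.64% of genes passed downwards. The lists of IFNG-treated cells with and without priming differed by a log2 ratio of -0.05 (-0.75 to 0.65), against 4.13% of genes at least 2-fold lower. These ratios share lists, so they are not independent of each other. IFNG and pIL-4 + IFNG recur among them, and M0[CTR] and M2p[pIL-4] also enter the comparisons above.

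Contacts could be compared only at bin pairs called in both lists, which leaves out any pair whose contacts fell below the caller's limit. M0[CTR] loops near the gene held 2055 contacts in all, M2[IL-4] loops 915, M2p[pIL-4] loops 2051, IFNG loops 1130 and pIL-4 + IFNG loops 1231. At the 21 bin pairs called in both the M0[CTR] and M2[IL-4] lists, contacts summed to 758 and 726, a log2 ratio of -0.06 (-0.21 to 0.09). Of these 21 pairs, 8 had more contacts in M2[IL-4], 12 had fewer and 1 was equal. Contacts summed over the 14063 bin pairs of the genome called in all 5 lists ranged from 99.8% to 104% of the M0[CTR] sum, so the lists were of similar depth where they could be compared.

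The same limit holds for the other lists. M2p[pIL-4] and M0[CTR] shared 47 pairs with 1463 and 1425 contacts, and IFNG and M0[CTR] shared 26 with 915 and 896. At the 20 pairs shared by M2p[pIL-4] and M2[IL-4] the sums were 790 and 688, a log2 ratio of 0.20 (0.05 to 0.35). This was the only one of the 6 comparisons whose interval for shared contacts left out 0, and its lower end was close to 0. The sums were not scaled for depth. At the 14063 bin pairs of the genome called in every list, M2p[pIL-4] held 764380 contacts and M2[IL-4] 736537, a difference in the same direction. Whether the interval would still leave out 0 after scaling for depth was not tested. pIL-4 + IFNG shared 27 pairs with M2p[pIL-4], with 952 against 1022 contacts, and 24 pairs with IFNG, with 848 against 872.

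All loops leaving the window ran one way, from Atp6v0d2 past the 3′ end of the gene towards lower coordinates. The numbers were 72 under M0[CTR], 29 under M2[IL-4], 66 under M2p[pIL-4], 34 under IFNG and 39 under pIL-4 + IFNG, and no loop in any list left the window towards higher coordinates. Their partner bins lay between chr4:19530001 and 19740000, over the genes Cpne3, Rmdn1, Gm12353 and Wwp1. Cpne3 encodes a copine, a calcium-dependent phospholipid-binding protein, Rmdn1 a regulator of microtubule dynamics, Wwp1 an E3 ubiquitin ligase, and Gm12353 is a predicted gene. The few other loops had both anchors inside the window: 1 under M0[CTR] (82 contacts), 2 under M2p[pIL-4] (69 and 80 contacts) and 1 under pIL-4 + IFNG (65 contacts).

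**Figure D2:**
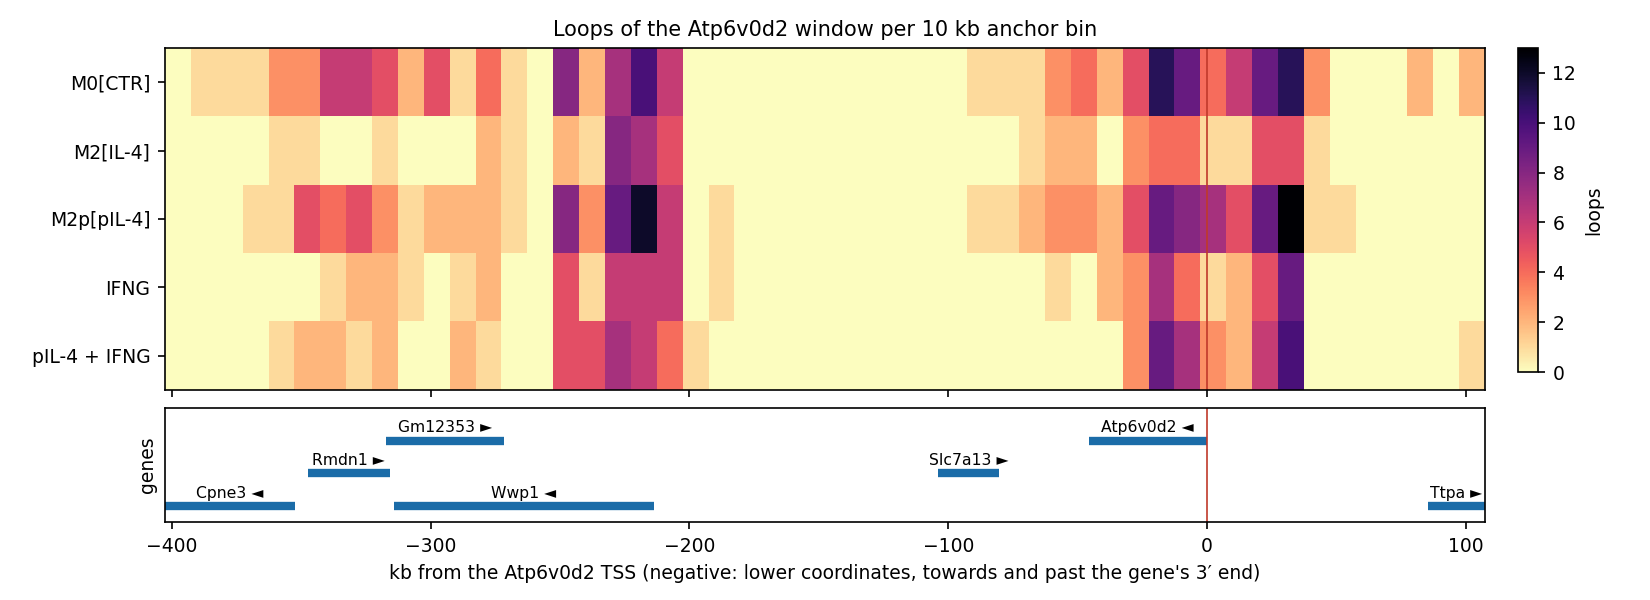
Loops of the Atp6v0d2 window per 10 kb anchor bin in each of the 5 lists (rows, colour scale from 0 to 13 loops), by distance in kb from the TSS (red line), with protein-coding genes below and arrows for their strand. Anchors fall in 2 stretches, one around Atp6v0d2 and one from Cpne3 to just beyond the Wwp1 TSS, and the Cpne3, Rmdn1 and Gm12353 part is thin in M2[IL-4], IFNG and pIL-4 + IFNG.

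The partner bins fell into 2 groups divided by the bin chr4:19660001-19670000, which was an anchor in no list. This division was made after the values were seen. The nearer group (chr4:19670001-19740000) covers the 5′ part of Wwp1, its TSS at position 19708993 and the sequence just beyond. The farther group (chr4:19530001-19660000) covers Cpne3, Rmdn1, Gm12353 and the 3′ part of Wwp1, and the shared promoter bin of Cpne3 and Rmdn1 is chr4:19570001-19580000.

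Loops to the farther group made up most of the difference between M0[CTR] and M2[IL-4]. They numbered 39 under M0[CTR], 6 under M2[IL-4], 27 under M2p[pIL-4], 9 under IFNG and 11 under pIL-4 + IFNG, so that the M0[CTR] and M2p[pIL-4] lists stood above the others. The scaled log2 ratio of M2[IL-4] to M0[CTR] was -2.64 (-4.36 to -1.58) and that of IFNG to M0[CTR] was -2.05 (-3.39 to -1.09). After rest, M2p[pIL-4] against M2[IL-4] gave 1.80 (0.65 to 3.52), and M2p[pIL-4] against M0[CTR] gave -0.85 (-1.64 to -0.13). Contacts of these loops summed to 857, 131, 545, 206 and 220 in the same order, with medians per loop of 23 under M0[CTR] and 19.5 under M2[IL-4]. The highest counts were 37 under M0[CTR], 32 under M2[IL-4] and 28 under M2p[pIL-4]. A limit of 30 contacts therefore leaves no farther loop under M2p[pIL-4], and the higher number after rest lay wholly in pairs below that limit.

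Loops to the 5′ part of Wwp1 differed less in number. There were 33 under M0[CTR], 23 under M2[IL-4], 39 under M2p[pIL-4], 25 under IFNG and 28 under pIL-4 + IFNG. The log2 ratio of M2[IL-4] to M0[CTR] was -0.62 (-1.48 to 0.17) and that of M2p[pIL-4] to M2[IL-4] was 0.53 (-0.23 to 1.36), both with intervals that took in 0. IFNG to M0[CTR] gave -0.43 (-1.25 to 0.35). The median count of these loops was 33 contacts in both M0[CTR] and M2[IL-4]. The intervals of the 2 partner groups for M2[IL-4] to M0[CTR] did not overlap, which is a description of groups set after seeing the data and not a test.

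**Figure D3:**
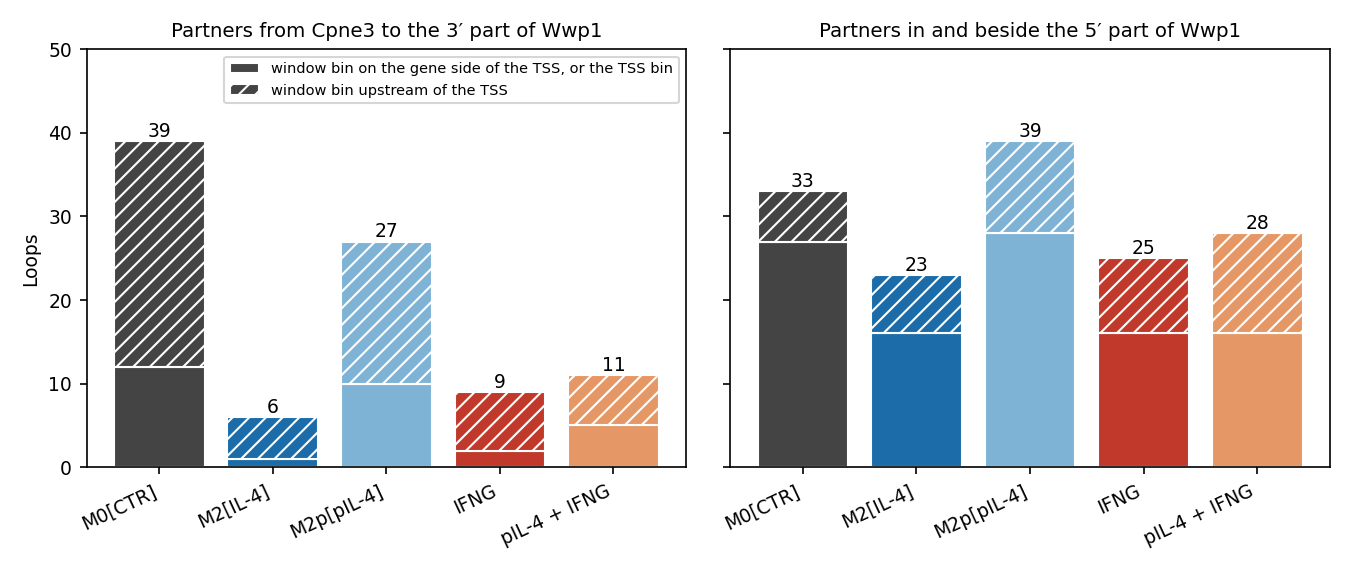
Loops from the Atp6v0d2 window to the farther partner bins (left) and to the nearer ones (right) in each list, with the total above each bar. Hatched parts are loops whose window anchor lies upstream of the TSS. The farther loops drop from 39 under M0[CTR] to 6 under M2[IL-4] and number 27 under M2p[pIL-4], while the nearer ones range from 23 to 39.

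The window end of the farther loops lay mostly upstream of the gene. Of the 39 under M0[CTR], 27 had their window anchor upstream of the TSS bin and 12 in the gene or the TSS bin, against 5 and 1 under M2[IL-4], 17 and 10 under M2p[pIL-4], 7 and 2 under IFNG, and 6 and 5 under pIL-4 + IFNG. For the loops to the 5′ part of Wwp1 the order was the other way round in M0[CTR], with 6 upstream and 27 on the gene side. In M2[IL-4] these were 7 and 16, so the upstream anchors did not become fewer there. M2p[pIL-4] had 11 and 28, IFNG 9 and 16, and pIL-4 + IFNG 12 and 16.

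Few loops ended at the TSS bin itself (chr4:19920001-19930000, which holds exon 1). It was an anchor of 4 loops under M0[CTR], 1 under M2[IL-4], 7 under M2p[pIL-4], 1 under IFNG and 3 under pIL-4 + IFNG, with 90, 26, 152, 24 and 69 contacts. Other window bins, on either side of it, were anchors of more loops. The bin chr4:19900001-19910000, inside intron 2 and 12.6 to 22.6 kb from the TSS, had 11 loops under M0[CTR], 4 under M2[IL-4], 9 under M2p[pIL-4], 7 under IFNG and 9 under pIL-4 + IFNG. The bin chr4:19950001-19960000, upstream of the gene by 27.4 to 37.4 kb and overlapping no protein-coding gene, had 11, 5, 13, 9 and 10 loops. Both bins were lowest in M2[IL-4].

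The bin in intron 2 held the strongest long-range pair. Its pair with chr4:19690001-19700000, inside Wwp1 and 210 kb away, had 61 contacts under M0[CTR], 58 under M2[IL-4], 88 under M2p[pIL-4], 62 under IFNG and 76 under pIL-4 + IFNG. M2p[pIL-4] was the highest list, at 1.44 times M0[CTR] (1.03 to 2.03) and 1.52 times M2[IL-4] (1.08 to 2.15). Its pair with the Wwp1 TSS bin (chr4:19700001-19710000) had 53, 33, 72, 54 and 56 contacts in the same order. Here M2[IL-4] was the lowest list, at 0.623 times M0[CTR] (0.391 to 0.980), and M2p[pIL-4] the highest, at 2.18 times M2[IL-4] (1.43 to 3.40).

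Pairs from the 5′ part of Wwp1 to upstream bins that were called in both lists had more contacts in M2[IL-4] than in M0[CTR]. The pair of chr4:19690001-19700000 with chr4:19940001-19950000 had 29 contacts under M0[CTR], 50 under M2[IL-4], 28 under M2p[pIL-4], 34 under IFNG and 51 under pIL-4 + IFNG. M2[IL-4] and pIL-4 + IFNG were the high lists, M2[IL-4] at 1.72 times M0[CTR] (1.07 to 2.83), and M2p[pIL-4] was at 0.560 times M2[IL-4] (0.339 to 0.907). The pair of the same Wwp1 bin with chr4:19950001-19960000 had 36, 50, 42, 53 and 54 contacts. From the Wwp1 TSS bin, the pairs with chr4:19940001-19950000 and chr4:19950001-19960000 had 23 and 33 contacts under M0[CTR] and 35 and 36 under M2[IL-4]. Shared upstream pairs of the farther partner group had fewer in M2[IL-4]. Their contacts under M0[CTR] and M2[IL-4] were 31 and 18, 35 and 27, and 23 and 19. Pairs not called in M2[IL-4] could not be compared in this way. The pair of chr4:19670001-19680000 with chr4:19940001-19950000, for example, had 39 contacts under M0[CTR], and 26, 28 and 29 in the remaining lists. Of the 21 pairs shared by M2[IL-4] and M0[CTR], only 2 (the pairs at 0.623 and 1.72 times) had an interval that left out equality, and of the 26 pairs shared by IFNG and M0[CTR] none had. The numbers were 2 of 47 for M2p[pIL-4] and M0[CTR], and 5 of 20 for M2p[pIL-4] and M2[IL-4]. Such numbers were not counted over all bin pairs that the same lists share in the genome, and the ratios were not scaled for depth. They therefore cannot be read as particular to this gene. The pairs described here were picked from the shared pairs after their values were seen.

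The GRCm38 sequence (RefSeq) of the window and its partner bins was searched for the core consensus of CTCF, a motif of 14 letters, on both strands. The motif was chosen after the loop values were seen. An exact match lay in the intron 2 bin at chr4:19901302-19901315 on the minus strand, and 2.70% of the 15204 mostly sequenced 10 kb bins of chromosome 4 held an exact match. With up to 1 mismatch, 22.6% of bins held a match. Such matches lay in the upstream bin at chr4:19952191-19952204 and in chr4:19985729-19985742 on the minus strand, and at chr4:20024113-20024126 on the plus strand. Among the partner bins, only chr4:19727639-19727652 on the minus strand matched. Its bin was an anchor of 1 loop in the pIL-4 + IFNG list (22 contacts) and of none in the other lists. The bin of the match at chr4:19985729-19985742 was an anchor in no list. These are matches of letters and not sites of binding, which was not measured in these files.

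**Figure D4:**
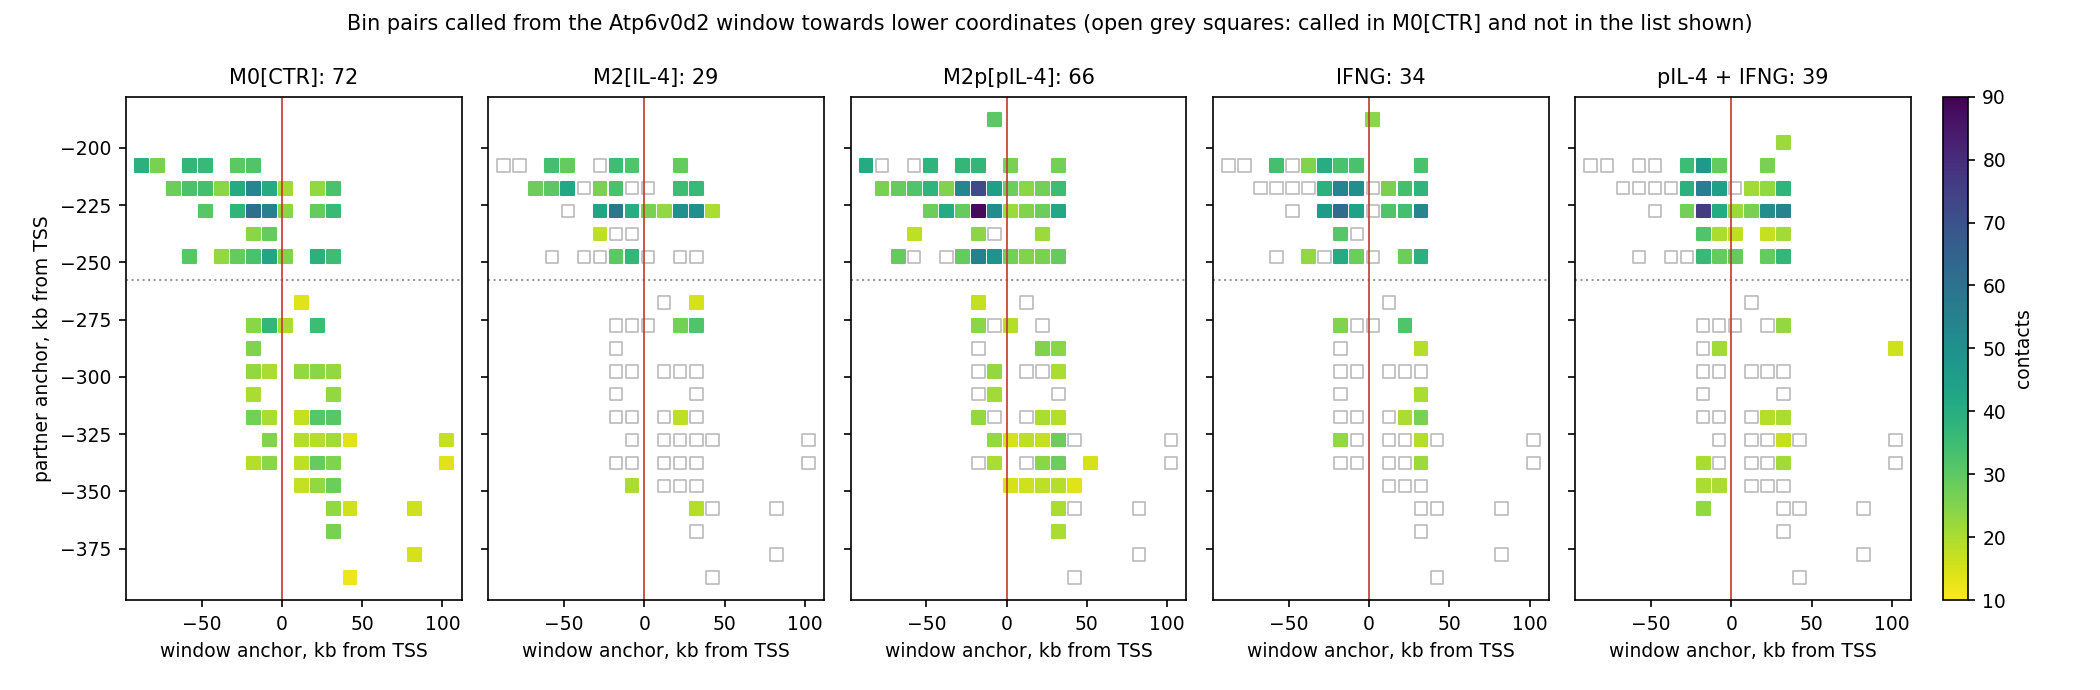
Bin pairs joining the Atp6v0d2 window (x axis, anchor in kb from the TSS, red line at the TSS) to bins at lower coordinates (y axis, partner in kb from the TSS), in 1 panel per list with its number of pairs. Colour gives the contacts, open grey squares are pairs called in M0[CTR] but not in that list, and the dotted line marks the bin that divides the partner groups. Below the line M2[IL-4] keeps few pairs, while the pairs with most contacts lie above it.

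Over the 5 lists 111 different bin pairs were called near the gene. Of these, 48 were in 1 list, 29 in 2, 11 in 3, 10 in 4 and 13 in all 5. Over the genome, 14063 of the 53424 M0[CTR] loops were in all 5 lists, beside 13 of the 73 near the gene. The other numbers and the patterns below were not counted over the genome, so they have no background to be read against. The commonest patterns were pairs in M0[CTR] alone (20), pairs in M0[CTR] and M2p[pIL-4] and no other list (18), and pairs in M2p[pIL-4] alone (15). Only 3 pairs were in M2[IL-4] alone.

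The M0[CTR] loops that were not called in M2[IL-4] were longer and weaker than those that were. The 21 called in both had a median of 34 contacts under M0[CTR] and a median span of 220 kb, and the 52 not called had 23.5 contacts and 310 kb. Loop strength, the count divided by the median count at that span in its own list, had a median of 1.27 in the first set and 1.00 in the second. Each of the 52 had an M0[CTR] count above the lowest count called at that span in the M2[IL-4] list, and 24 had a count above the median there. Above the lowest count were also 26 of 26 M0[CTR] pairs not called in M2p[pIL-4], 46 of 47 in IFNG and 48 of 48 in pIL-4 + IFNG. Of these, 9, 19 and 23 were above the median. The lowest count is thus passed by almost any such pair and does not set M2[IL-4] apart. Counts of uncalled pairs are not in the lists, so a pair that was not called may still have had contacts just under the caller's limit.

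In M2p[pIL-4], 28 of the 52 pairs (53.8%) were called again in the same bins, against 11 (21.2%) under IFNG and 11 (21.2%) under pIL-4 + IFNG. Over all M0[CTR] loops of the genome the same-bin shares were 53.5%, 46.9% and 52.0%. The share in M2p[pIL-4] was close to this general rate and the other shares were below it, but the sets are unlike. The general rate takes in all M0[CTR] loops, whereas the 52 pairs were weaker ones not called in M2[IL-4]. A rate for the genome's loops chosen in the same way was not computed. At the 28 pairs, contacts summed to 739 under M0[CTR] and 698 under M2p[pIL-4]. Of the 21 pairs that were also in M2[IL-4], 19 were in M2p[pIL-4], 15 under IFNG and 14 under pIL-4 + IFNG. Of the 8 pairs called in M2[IL-4] but not in M0[CTR], 1 was in M2p[pIL-4], 2 under IFNG and 5 under pIL-4 + IFNG. Rates for the genome's loops chosen like these 21 and 8 pairs were not computed either, so these counts are descriptions only.

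Calling moves between neighbouring bins, so loops were also matched when both anchors lay within 25 kb. Of the 73 M0[CTR] loops near Atp6v0d2, 60 (82.2%, 95% Wilson interval 71.9 to 89.3) had a match in M2[IL-4], 71 (97.3%, 90.5 to 99.2) under M2p[pIL-4], 65 (89.0%, 79.8 to 94.3) under IFNG and 62 (84.9%, 75.0 to 91.4) under pIL-4 + IFNG. Over all M0[CTR] loops of the genome the shares were 89.2%, 91.1%, 88.0% and 90.6%. In the same bins, the shares near the gene were 28.8%, 64.4%, 35.6% and 34.2%, against 48.5%, 53.5%, 46.9% and 52.0% over all loops. The intervals of the same-bin shares were 19.7 to 40.01, 52.9 to 74.4, 25.6 to 47.1 and 24.4 to 45.7. Within 25 kb, the genome's share fell inside the interval of every list. In the same bins it lay above the intervals of M2[IL-4] and pIL-4 + IFNG and inside those of M2p[pIL-4] and IFNG.

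A higher limit on contacts changed the ratios between lists. With at least 30 contacts per loop there were 26 loops under M0[CTR], 16 under M2[IL-4], 19 under M2p[pIL-4], 20 under IFNG and 14 under pIL-4 + IFNG, and the log2 ratio was -0.82 from M0[CTR] to M2[IL-4] and -0.79 from M0[CTR] to M2p[pIL-4]. When touching bin pairs were merged there were 11, 6, 8, 10 and 7 groups of loops, and M2[IL-4] stood at a log2 ratio of -0.89 to M0[CTR] and IFNG at -0.16.

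Widening the window to 200 kb added 3 loops under M0[CTR], 2 under M2[IL-4], 3 under M2p[pIL-4], 0 under IFNG and 1 under pIL-4 + IFNG. At the edges of the 100 kb window, the bin chr4:19820001-19830000 had no loop in any list, and the last bin, chr4:20020001-20030000 inside Ttpa, had 2 loops under M0[CTR] and 1 under pIL-4 + IFNG. The bins just outside, chr4:19810001-19820000 and chr4:20030001-20040000, had no loop to the window. The partner bins had almost no loops besides those to Atp6v0d2: 3 under M0[CTR], 2 under M2[IL-4], 3 under M2p[pIL-4], 0 under IFNG and 1 under pIL-4 + IFNG, all of them running past the window to higher coordinates.

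Most loops near the neighbouring genes were the same loops, counted again. Cpne3 and Rmdn1, whose promoters share a bin, each had 49 loops under M0[CTR], 9 under M2[IL-4], 38 under M2p[pIL-4], 14 under IFNG and 17 under pIL-4 + IFNG within 100 kb of their TSSs. Of these, 47, 8, 35, 14 and 16 also ended in the Atp6v0d2 window. Their log2 ratio of M2[IL-4] to M0[CTR] was -2.45, lower than that of Atp6v0d2. Wwp1 had 52, 28, 50, 31 and 33 loops, of which 51, 27, 50, 31 and 33 reached the Atp6v0d2 window, with a log2 ratio of -0.99.

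The other neighbours gave intermediate ratios. Gm12353 had 68 loops under M0[CTR] and 26 under M2[IL-4]. On the other side, Ttpa, which encodes the alpha-tocopherol transfer protein, had 59 and 23, and Ggh, the gamma-glutamyl hydrolase gene, had 29 and 13. Slc7a13, an amino acid transporter gene between Wwp1 and Atp6v0d2, had 37 and 17. The windows of these genes overlap, so their values are not independent. Cnbd1, Cngb3 and Nkain3, farther away on both sides, had no loop in any list.

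Most other V-ATPase genes had similar loop numbers in M0[CTR] and M2[IL-4]. Of the 25 genes of the list, 12 were higher in scaled loops, 12 lower and 1 (Atp6v1h) had no loop in any list, with a median log2 ratio of 0.00, as over all genes. Without scaling, 12 were higher and 10 lower. At least 2-fold lower were 3 genes: Atp6v0d2, Atp6v0a4 (8 loops under M0[CTR] and 1 under M2[IL-4]) and Atp6v1f (4 and 1), and 3 genes with at most 6 loops in either list were at least 2-fold higher, 2 of them with no loop under M0[CTR]. Over all genes 6.05% were at least 2-fold lower and 7.14% at least 2-fold higher. Atp6v0d2 belongs to the list and was chosen for its value, so these counts include it by design.

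Among the V-ATPase genes with at least 10 loops in both lists together, the lowest after Atp6v0d2 were Atp6v0a1, an isoform of the large a subunit, with 88 loops under M0[CTR] and 74 under M2[IL-4], and Atp6v0c, which encodes the proton-carrying ring, with 22 and 19. The highest were Atp6v1b1, an isoform of the B subunit of the V1 domain, with 6 and 12, the paralog Atp6v0d1 with 12 and 19, and Atp6v0a2 with 27 and 35. The scaled log2 ratio was 0.51 for Atp6v0d1 and -1.43 for Atp6v0d2. Over the other lists Atp6v0d1 had 20 loops under M2p[pIL-4], 13 under IFNG and 22 under pIL-4 + IFNG, and did not follow the order of lists seen at Atp6v0d2. Atp6v0a1 had 87, 89 and 107, so IFNG was not a low list there.

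**Figure D5:**
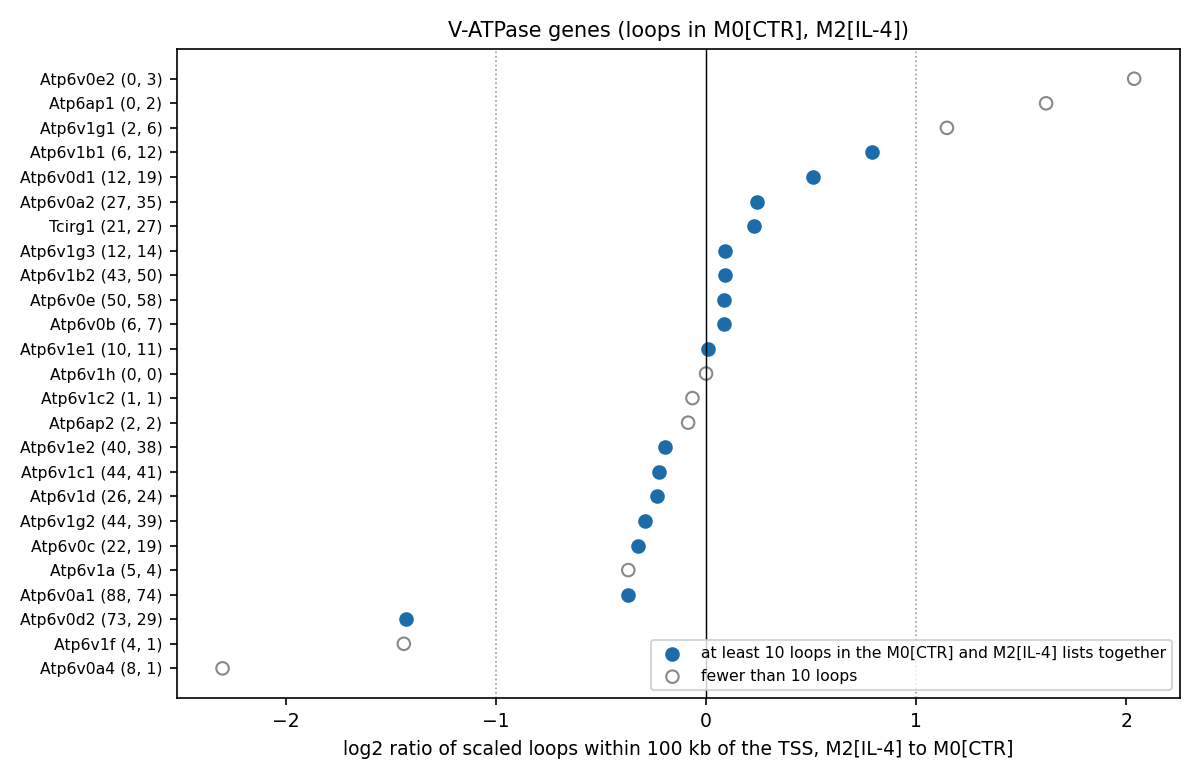
The 25 V-ATPase genes by the log2 ratio of scaled loops within 100 kb of their TSS, M2[IL-4] to M0[CTR], with the loop numbers in M0[CTR] and M2[IL-4] in brackets. Filled points have at least 10 loops in both lists together, and dotted lines mark 2-fold. Atp6v0d2 (-1.43) is the only filled point past a dotted line.

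Of 23 genes of osteoclasts and of macrophage fusion, more were lower than higher in M2[IL-4] against M0[CTR], by small ratios. In scaled loops, 7 were higher, 15 lower and 1 (Calcr) had no loop in any list, with a median log2 ratio of -0.24 against 0.00 over all genes. The median over all genes takes in genes without any loop, whose ratio is 0. The shares of all genes that were lower or higher are not given here, so 15 and 7 have no background to be read against. Without scaling, 8 were higher and 14 lower. Only Cd47, a cell surface protein that binds Sirpa, was at least 2-fold lower, with 3 loops under M0[CTR] and 1 under M2[IL-4], and no gene was at least 2-fold higher, beside 6.05% and 7.14% over all genes. Among those with at least 10 loops, the lowest were Tnfrsf11a, the receptor RANK, with 9 and 5 loops, Mitf, a transcription factor of osteoclasts, with 20 and 16, and Mst1r, a receptor tyrosine kinase, with 35 and 29. The highest were Ostm1 with 7 and 11, the fusion gene Ocstamp with 16 and 24, and the receptor gene Oscar with 13 and 19.

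Among the 12921 genes with at least 20 loops over the 5 lists and a TSS more than 1 Mb away, the pattern nearest to that of Atp6v0d2 was at Clec2l on chromosome 6. Likeness was the Euclidean distance between scaled log2 loop numbers over the 5 lists, centred per gene. Clec2l had 51 loops under M0[CTR], 21 under M2[IL-4], 48 under M2p[pIL-4], 24 under IFNG and 25 under pIL-4 + IFNG, at a distance of 0.159. The next were Arhgap15 (0.267), Riok2 (0.312), Lurap1 (0.318) and Lamp5 (0.320), of which none had more than 14 loops in a list.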

How the data were processed

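The 10 Hi-C samples were grouped by their titles into 5 groups of 2. The authors deposited 1 loop list per group, each line a pair of 10 kb bins with a whole-number count of contacts (raw as far as the values show). The submitters' processing notes name FastQC, Bowtie2, HiC-Pro, Juicer, HOMER and mm10. The methods give HICCUPS loops at 25 kb, so the caller and threshold behind the 10 kb lists are not given in the sources used here. Lists held 53424 to 67728 loops and 2174945 to 2787117 contacts. No loop ran past a GRCm38 chromosome end.

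Genes were GENCODE M21 protein-coding genes (1 entry per symbol). Loop numbers were scaled by list length to the mean list, with a pseudocount of 1, and a gene counted as changed at 2-fold. Intervals were exact Poisson, exact conditional binomial (ratios, scaled by list length for loop numbers but without the pseudocount) or Wilson (shares) at 95%. No test was run. Counting and matching were checked against a direct search on the loop lists themselves. The log2 ratio was checked on a copy of the M0[CTR] list with loops removed at random near chosen genes. The software was scipy 1.17.1, pandas 2.3.3 and numpy 2.4.6 under Python 3.11.15, with plots from matplotlib 3.10.9.

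The gene, the gene lists and the comparisons were chosen with earlier results of these data known. Named genes were Atp6v0d2, Atp6v0d1, genes with a TSS within 1 Mb or overlapping a partner bin, the 3 highest and 3 lowest of each gene list by M2[IL-4] to M0[CTR] among those with at least 10 loops in both lists, and the 5 nearest patterns. Atp6v0a4, Atp6v1f, Atp6v1h, Cd47 and Calcr were named after their values were seen. Alternatives were other windows, contact limits, scalings, pseudocount, list lengths, merging and matching rules.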

Additional observations from a re-analysis of the deposited data

How the results depend on the processing

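Of 79 alternatives over 11 results, 60 stayed within the interval of the reported value, 16 left it and 3 changed sign. Windows of 25, 50 and 200 kb, other scalings, a pseudocount of 0.5 and equal list lengths kept the direction of every loop ratio except that of pIL-4 + IFNG to IFNG, whose interval took in 0: it was 0.16 with a 25 kb window, 0.0802 with equal list lengths and 0.23 without scaling. With at least 30 contacts, log2 ratios were -0.82 (M2[IL-4] to M0[CTR]), 0.0243 (M2p[pIL-4] to M2[IL-4]), -0.42 (IFNG to M0[CTR]) and -0.76 (pIL-4 + IFNG to IFNG). With touching pairs merged they were 0.24 (M2p[pIL-4] to M2[IL-4]), -0.16 (IFNG to M0[CTR]) and -0.16 (pIL-4 + IFNG to M2p[pIL-4]). Fewer loops entered both of these, and the cause was not tested beyond that. Matched shares in M2[IL-4], M2p[pIL-4], IFNG and pIL-4 + IFNG were 28.8%, 64.4%, 35.6% and 34.2% in the same bins and 98.6%, 100%, 95.9% and 97.3% within 50 kb. For M0[CTR] loops of at least 30 contacts the share in M2p[pIL-4] was 100%. No paired analysis was possible because the lists hold no values per replicate, and leaving out a replicate could not be run for the same reason. Depth limits these data at low counts: pairs under the caller's limit have no value.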
